A study of Mus musculus with 163 samples.

Results

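The genes described here are those whose transcripts fell most steeply while mouse oocytes grew in the ovary, and the question is what their levels were in oocytes grown in culture. Members were chosen by their measured values in the in vivo oocytes: a pooled level of at least 5 CPM (counts per 1000000 reads) in in vivo growing oocytes (GROs), and a log2 ratio of in vivo fully grown oocytes (FGOs) to in vivo GROs of -2 or lower after 0.5 CPM was added to each level. Of 21950 genes in the table, 8849 reached 5 CPM in in vivo GROs, and 221 of those (2.50%) passed both limits. The 8 of these that belong to the solute carrier genes or are Hes5 or Cbx8 were left out by name, which left 213 members, 211 of them protein-coding and 2 long noncoding (E330020D12Rik and Alkbh3os1). Since the fall in vivo chose the members, it is given as a description and supports nothing.

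The study sequenced single mouse oocytes with Smart-seq2, a full-length cDNA method, to compare oocytes made in vitro with those from ovaries. Its 163 libraries form 7 groups. GROs were taken from ovaries (in vivo, 24 oocytes), from E12.5 embryonic gonads differentiated and cultured in vitro (gonad-derived, 24 oocytes) and from BVSC induced pluripotent stem cells taken through primordial germ cell-like cells (iPSC-derived, 23 oocytes). FGOs were taken from ovaries (in vivo, 20 oocytes), from follicles isolated 6 days after birth and grown in vitro (6 dpp follicle-derived, 24 oocytes), from the embryonic gonad culture (gonad-derived, 24 oocytes) and from the iPSC culture (iPSC-derived, 24 oocytes). Beyond these source stages, the sample labels give no strain, age of the mice the in vivo oocytes came from, treatment, animal or culture dish for an oocyte. Per the study's methods, the BVSC cells are a single female line carrying Blimp1-Venus and Stella-ECFP reporters, the germ cell-like cells were combined with E12.5 gonadal somatic cells that had been depleted of germ cells, and follicles of all 3 cultured FGO groups were grown in the same medium, with follicle-stimulating hormone and, at the start, GDF9 and BMP15, but for a somewhat longer time in the iPSC culture. The removal of germ cells was probably not complete, since some oocytes in that culture lacked the Stella-ECFP reporter, and the labels do not say whether each sequenced oocyte carried it. A single line and somatic cells of another source limit the iPSC-derived groups as a model. The methods state that the gonads that gave those somatic cells came from outbred Swiss Webster mice. They name no strain for the sequenced in vivo oocytes. Differences of strain between groups thus cannot be told apart from those of source. Because no animal or culture was named, each group counted as 1 sample: values are described without tests, and an interval covers counting error only. The cDNA was amplified and carries no molecular identifiers, so those intervals are too narrow as a measure of differences between oocytes.

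An oocyte grows inside its follicle over a long prophase arrest, storing RNA and protein while its genome is actively transcribed. Late in growth the chromatin condenses around the nucleolus and transcription is silenced, so the transcripts of a fully grown oocyte are those that were stored and kept. Genes of early follicle formation, among them those of the oocyte transcription factors, are known to decline as growth proceeds. A CPM value is a share of the library: fewer molecules of a transcript and more RNA of other genes cannot be told apart here.

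Libraries held 2.17 M to 13.7 M counted reads (median 6.93 M, where 1 M is 1000000 reads) and groups summed to 145 M to 166 M, so that 3 reads correspond to at most 0.021 CPM in a group. All 12 oocyte markers tested were at 1 CPM or more in every group, with summed levels of 22563 to 52848 CPM. Of 14 granulosa cell markers 12 were matched, and 5 to 10 of them reached 1 CPM in a group. Their summed level ranged from 131 to 173 CPM over the GRO groups and from 330.4 to 421 CPM over the FGO groups. From GROs to FGOs it thus moved opposite to the members, but not throughout among the FGO groups. Esr2 alone made up most of this sum, with 81.1 to 118 CPM over the GRO groups and 212 to 244 CPM over the FGO groups. Amh was at most 1.10 CPM and Amhr2 at most 0.331 CPM in any group. In vivo, Nr5a2 and Fshr were lower in FGOs than in GROs and the other matched markers higher. The sum is therefore not a measure of granulosa cells. The 6 dpp group had the highest granulosa sum and the highest median summed level of the members (973.1 CPM). In vivo FGOs had a granulosa sum of 382.9 CPM and the lowest such median (698 CPM). Theca and stroma markers summed to 3.22 to 7.19 CPM except in 6 dpp follicle-derived FGOs, where they summed to 61.9 CPM, with 829.8 CPM in oocyte 12 and 314 CPM in oocyte 10, and to 29.4 CPM without oocyte 12. In the 6 dpp group Hsd3b1 (49.4 CPM) and Cyp11a1 (8.05 CPM) held most of the theca and stroma sum. Star was at 1.76 CPM there, and the remaining markers, among them Cyp17a1 and Pdgfra, were lower. None of the members is in a marker list, and the part of other cells in the results was not tested. In vivo FGOs 5, 7, 19 and 22 stood apart from the other in vivo FGOs in holding many members at a higher level, and the main counts that rest on the in vivo FGOs are therefore given with and without them. Oocyte 19 also had the highest granulosa marker sum of the in vivo FGOs, 615.6 CPM against a median of 358.9 CPM. In vivo FGO 16, which is not among those set apart, had 589.8 CPM. In vivo GROs 17 to 24 stood apart from in vivo GROs 1 to 16: the ranges did not overlap for 33 members, all of them higher in 17 to 24 (7.31% of all genes were higher and 1.75% lower without overlap). The labels name no batch for these 8 oocytes, and the early falls, which divide by the in vivo GROs, are given with and without them.

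In vivo, the median log2 ratio of FGOs to GROs was -2.28 over the members and -0.16 over the 8849 genes. Without in vivo FGOs 5, 7, 19 and 22 the medians were -2.91 and -0.20. Just inside the limit on the ratio were Abca2 (-2.0), Gas2l1 (-2.0) and Isg20l2 (-2.01), and just outside were Ppcs (-2.0), Iars2 (-2.0) and Tle4 (-1.99), ordered before rounding. Just inside the limit on the level were Zfp503 (5.06 CPM), Alkbh3os1 (5.08 CPM) and Cldn6 (5.10 CPM), and just outside were Tsga8 (4.97 CPM), Lime1 (4.87 CPM) and Fjx1 (4.85 CPM).

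For nearly all members the cultured FGOs ended at least 2-fold below in vivo GROs, and most members fell at least 2-fold inside each culture. The outcomes were defined with a 2-fold limit. A fall was called early where the cultured GROs already stood at least 2-fold below in vivo GROs. It was called failed where the cultured FGOs stayed within 2-fold of in vivo GROs or above, complete where it had not failed and the cultured FGOs stood less than 2-fold above in vivo FGOs, and partial otherwise. Early falls were found for 59 members in iPSC-derived GROs and 71 in gonad-derived GROs, or for 36 and 33 without in vivo GROs 17 to 24. Complete falls were found for 203 members in iPSC-derived, 200 in gonad-derived and 206 in 6 dpp follicle-derived FGOs, and failed falls for 8, 7 and 3. The complete class held 21.9%, 17.3% and 17.9% of all genes, but its second condition alone, less than 2-fold above in vivo FGOs, was met by 97.8%, 99.0% and 99.4% of all genes, so that a complete fall says mainly that the fall had not failed.

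**Figure D1:**
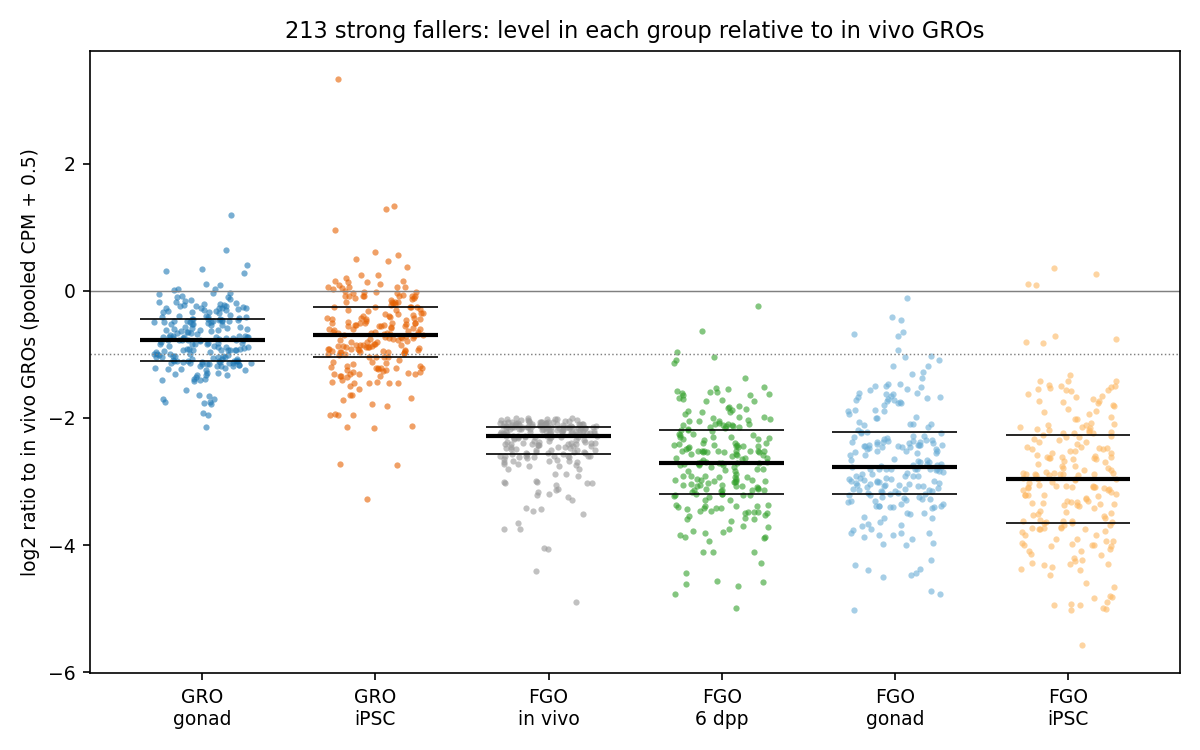
Each point is 1 of the 213 members and the vertical axis is its log2 ratio of pooled CPM (plus 0.5) to in vivo GROs. Thick bars mark medians, thin bars the quartiles, and the dotted line the 2-fold limit. Medians were -0.77 and -0.69 in gonad-derived and iPSC-derived GROs and lay between -2.28 and -2.97 in the 4 FGO groups.

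The levels in cultured GROs were set beside those in in vivo GROs. In iPSC-derived GROs 59 of 213 members (27.7%) were at least 2-fold below in vivo GROs, against 4.73% of all genes at 5 CPM, and 3 members were at least 2-fold above, against 2.18%. In gonad-derived GROs 71 members (33.3%) were at least 2-fold below, against 2.73%, and 1 was at least 2-fold above, against 1.98%. The median log2 ratio to in vivo GROs was -0.69 over the members in iPSC-derived GROs (-0.08 over all genes) and -0.77 in gonad-derived GROs (-0.06 over all genes). Without in vivo GROs 17 to 24, an alternative chosen after seeing the data, 36 members (2.67% of all genes) and 33 members (1.23%) were at least 2-fold below in the iPSC and gonad cultures, 30 and 28 of them also with all 24 oocytes, and the medians were -0.49 and -0.53. The rule asked for a high level in in vivo GROs, the same libraries these ratios divide by, so a lower level elsewhere is partly fixed by the choice of members. Read by the median oocyte in place of the pooled level, 30 of the 59 and 33 of the 71 kept the early class. Per the study, cultured GROs of both kinds were larger than its in vivo GROs. Oocyte sizes were not used here, so stage of growth and effect of culture cannot be told apart in these ratios.

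The spread between oocytes was wide beside these shifts. Only 2 members, Ier2 and Htr5b, had every iPSC-derived GRO below every in vivo GRO, against 0.475% of all genes, and no member had this in gonad-derived GROs, against 0.0339%. Ier2, an immediate early response gene, was at 52.7 CPM in in vivo GROs, 25.3 CPM in gonad-derived GROs and 15.7 CPM in iPSC-derived GROs. Htr5b, which encodes a serotonin receptor, was at 47.2 CPM in in vivo GROs, 22.2 CPM in gonad-derived GROs and 4.43 CPM in iPSC-derived GROs, with log2 ratios to in vivo GROs of -3.27 in the iPSC culture and -1.07 in the gonad culture. Htr5b ran from 19.7 to 87.3 CPM with a median of 45.4 CPM over in vivo GROs, from 3.11 to 44.7 CPM with a median of 21.0 CPM over gonad-derived GROs and from 0.292 to 10.1 CPM with a median of 3.46 CPM over iPSC-derived GROs. The gonad-derived oocytes overlapped both other groups.

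Against all 24 in vivo GROs, Fzd5, Shisa2, Tead1 and Smoc1 were past the 2-fold limit in both cultures. Fzd5, a receptor for Wnt ligands, was at 18.5 CPM in in vivo GROs, 5.20 CPM in gonad-derived GROs and 3.77 CPM in iPSC-derived GROs, and its oocytes ran from 5.79 to 50.2 CPM with a median of 13.8 CPM in vivo, from 2.72 to 8.95 CPM with a median of 4.61 CPM in the gonad culture and from 2.26 to 6.52 CPM with a median of 3.32 CPM in the iPSC culture. In vivo GROs 17 to 24 held 20.9 to 50.2 CPM and 1 to 16 held 5.79 to 18.0 CPM. Without 17 to 24 both calls held for Fzd5, with a log2 ratio of -1.09 in the gonad culture. Shisa2, which holds back the maturation of Wnt and FGF receptors, was at 14.9 CPM in in vivo GROs, 5.53 CPM in gonad-derived GROs and 3.46 CPM in iPSC-derived GROs, with ratios of -1.63 and -1.02 without those 8 oocytes. Tead1, the DNA-binding partner of the Hippo pathway effectors, was at 10.7 CPM in in vivo GROs, 2.93 CPM in gonad-derived GROs and 2.38 CPM in iPSC-derived GROs. Its level was 13.2 to 27.6 CPM in in vivo GROs 17 to 24 and 1.57 to 10.5 CPM in 1 to 16, and without the former the ratios were -1.06 and -0.81, so that the gonad call ended. Smoc1, a secreted calcium-binding protein that modulates BMP signalling, was at 7.20 CPM in in vivo GROs, 1.53 CPM in gonad-derived GROs and 1.52 CPM in iPSC-derived GROs. The iPSC level of Smoc1 rests largely on iPSC-derived GRO 1, without which its log2 ratio to in vivo GROs went from -1.93 to -2.56. Both of its calls ended without in vivo GROs 17 to 24, with ratios of -0.83 and -0.82.

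Maged1, a melanoma antigen family protein, was at 62.6 CPM in in vivo GROs, 17.8 CPM in gonad-derived GROs and 24.4 CPM in iPSC-derived GROs, and its oocytes ran from 17.8 to 189 CPM with a median of 52.0 CPM in vivo against from 5.78 to 53.8 CPM with a median of 16.1 CPM and from 8.33 to 69.6 CPM with a median of 20.2 CPM in the gonad and iPSC cultures. Zswim6, a zinc finger SWIM-type protein, was at 10.5 CPM in in vivo GROs, 1.99 CPM in gonad-derived GROs and 2.33 CPM in iPSC-derived GROs. Both were past the 2-fold limit in both cultures. Zswim6 was at 16.1 to 36.1 CPM in in vivo GROs 17 to 24 and at 1.59 to 6.10 CPM in 1 to 16, and without the former both of its calls ended, at -0.52 and -0.70. Those of Maged1 held, at -1.23 and -1.67. Sohlh1, a germ cell transcription factor of early follicle growth, was at 18.3 CPM in in vivo GROs, 6.59 CPM in gonad-derived GROs and 18.1 CPM in iPSC-derived GROs. It passed the limit in the gonad culture and stood near the in vivo level in the iPSC culture. Its oocytes ran from 0.398 to 84.1 CPM with a median of 12.7 CPM in vivo, from 0.139 to 41.5 CPM with a median of 2.40 CPM in the gonad culture and from 0 to 76.2 CPM with a median of 11.7 CPM in the iPSC culture, so the 3 GRO groups overlapped over most of their ranges.

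The members at least 2-fold above in vivo GROs numbered 3 in the iPSC and 1 in the gonad culture, or 7 (2.52% of all genes) and 1 (2.03%) without in vivo GROs 17 to 24. In that setting Mapkapk2 (1.35), Tlnrd1 (1.28), Cbr3 (1.17) and Agrn (1.01) joined in the iPSC culture, and the gonad call was Mapkapk2 (1.09). Krt79, which encodes a type II keratin, was at 28.4 CPM in in vivo GROs, 65.5 CPM in gonad-derived GROs and 291 CPM in iPSC-derived GROs, with log2 ratios of 3.33 and 1.19. Over oocytes it ran from 0.149 to 151 CPM with a median of 20.0 CPM in vivo, from 1.51 to 372 CPM with a median of 35.0 CPM in the gonad culture and from 26.5 to 1433 CPM with a median of 194 CPM in the iPSC culture. Pvr, the adhesion receptor CD155, was at 5.19 CPM in in vivo GROs, 3.41 CPM in gonad-derived GROs and 13.9 CPM in iPSC-derived GROs. Pax6, the eye and neural transcription factor, was at 9.31 CPM in in vivo GROs, 14.8 CPM in gonad-derived GROs and 23.4 CPM in iPSC-derived GROs. Krt79 passed the limit in both cultures, or only in the iPSC culture without in vivo GROs 17 to 24 (gonad ratio 0.95), without gonad-derived GRO 7 (0.89) or when read by the median oocyte, and Pvr and Pax6 only in the iPSC culture.

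The fall from GRO to FGO inside each culture uses no library that the rule used, and the iPSC and gonad cultures share none with each other. In the iPSC culture 125 members (58.7%) fell at least 4-fold, against 4.51% of all genes, and 186 fell at least 2-fold, against 15.9%. In the gonad culture 100 members (46.9%) fell at least 4-fold, against 2.42%, and 186 fell at least 2-fold, against 10.9%. The median log2 ratio was -2.23 in the iPSC culture (-0.12 over all genes) and -1.93 in the gonad culture (-0.08 over all genes). At least 4-fold falls in both cultures were found for 94 members, which is 75.2% of the iPSC list and 94% of the gonad list. Over all genes 197 (2.23%) fell 4-fold in both, which is 49.4% and 92.1% of the lists. A further 82 members fell 4-fold in neither culture, and 18 fell 2-fold in neither. The share of all genes that fell in neither was not counted. Most genes did so, since only 15.9% and 10.9% of all genes fell 2-fold in the iPSC and gonad cultures. Some members were already low in cultured GROs. Of the 168 at 5 CPM or more in iPSC-derived GROs 111 fell 4-fold (4.40% of all such genes), and of the 165 in gonad-derived GROs 92 did (2.34%).

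**Figure D2:**
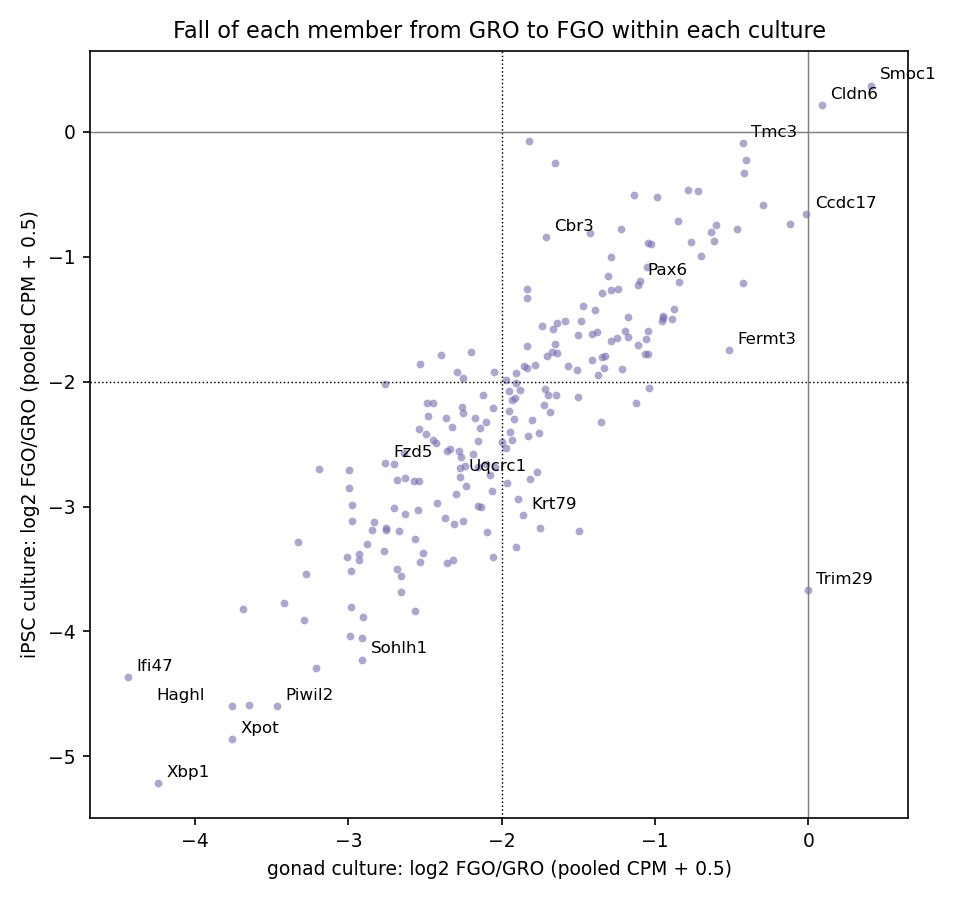
Each point is 1 member. The horizontal axis is the log2 ratio of FGOs to GROs in the gonad culture and the vertical axis the same in the iPSC culture (pooled CPM plus 0.5). Dotted lines mark 4-fold falls, and 94 members lie below both. Smoc1 and Cldn6 lie above 0 on both axes. For Smoc1 single oocytes decide this: its iPSC ratio of 0.37 was -0.52 without iPSC-derived FGO 18 and 1.0 without iPSC-derived GRO 1, and its gonad ratio of 0.41 was -0.23 without gonad-derived FGO 1.

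The spread over oocytes was as follows. Every FGO lay below every GRO of its own culture for 107 members in the iPSC culture, against 8.00% of all genes, and for 67 members in the gonad culture, against 3.74%. In vivo, where the rule used the same libraries, the count was 41 (1.72% of all genes), or 147 (8.37%) without in vivo FGOs 5, 7, 19 and 22.

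The deepest falls inside both cultures included Xbp1, Xpot, Selenos, Piwil2, Haghl and Ifi47. Xbp1, the transcription factor of the unfolded protein response, was at 52.3 CPM in in vivo GROs, 30.4 CPM in gonad-derived GROs and 60.5 CPM in iPSC-derived GROs, and at 8.20 CPM in in vivo FGOs, 2.55 CPM in 6 dpp follicle-derived FGOs, 1.13 CPM in gonad-derived FGOs and 1.14 CPM in iPSC-derived FGOs. Oocyte 12 of the 6 dpp group, the one with the highest granulosa and theca marker levels, carried part of the Xbp1 level there: the log2 ratio to in vivo FGOs was -1.51, or -2.13 without it. Without in vivo FGOs 5, 7, 19 and 22, where Xbp1 was at 4.99 CPM in vivo, that ratio was -0.85, no longer past the 2-fold limit. The log2 fall of Xbp1 was -5.21 in the iPSC culture, -4.24 in the gonad culture and -2.60 in vivo. Xbp1 ran from 26.8 to 107 CPM with a median of 58.6 CPM over iPSC-derived GROs and from 0 to 4.52 CPM with a median of 0.987 CPM over iPSC-derived FGOs, without overlap. Selenos, a selenoprotein of endoplasmic reticulum quality control, fell by 4.58 and 3.65 on the log2 scale in the iPSC and gonad cultures, to 0.782 and 1.40 CPM.

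Xpot, the exporter of tRNA from the nucleus, was at 24.0 CPM in in vivo GROs, 17.1 CPM in gonad-derived GROs and 24.9 CPM in iPSC-derived GROs, and at 3.68 CPM in in vivo FGOs, 0.527 CPM in 6 dpp follicle-derived FGOs, 0.801 CPM in gonad-derived FGOs and 0.373 CPM in iPSC-derived FGOs. It fell by 4.86 on the log2 scale in the iPSC culture and by 3.76 in the gonad culture. Xpot was at 1.34 CPM in in vivo FGOs without oocytes 5, 7, 19 and 22. Its log2 ratios to in vivo FGOs in the order iPSC, gonad and 6 dpp were then -1.08, -0.50 and -0.84. Piwil2, an Argonaute protein of the piRNA pathway that silences transposons in germ cells, was at 74.4 CPM in in vivo GROs, 39.0 CPM in gonad-derived GROs and 37.6 CPM in iPSC-derived GROs, and at 13.2 CPM in in vivo FGOs, 1.87 CPM in 6 dpp follicle-derived FGOs, 3.07 CPM in gonad-derived FGOs and 1.08 CPM in iPSC-derived FGOs. Over oocytes it ran from 53.2 to 108 CPM with a median of 70.6 CPM in in vivo GROs, from 0.931 to 38.9 CPM with a median of 8.42 CPM in in vivo FGOs, from 0 to 4.52 CPM with a median of 1.81 CPM in 6 dpp follicle-derived, from 0 to 11.9 CPM with a median of 1.96 CPM in gonad-derived and from 0 to 3.98 CPM with a median of 0.885 CPM in iPSC-derived FGOs. The in vivo FGOs were spread widely for Piwil2 and the cultured FGOs sat at their lower end.

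Haghl, a relative of the glyoxalase hydroxyacylglutathione hydrolase, was at 22.7 CPM in in vivo GROs, 11.4 CPM in gonad-derived GROs and 16.7 CPM in iPSC-derived GROs, and at 0.904 CPM in in vivo FGOs, 0.565 CPM in 6 dpp follicle-derived FGOs, 0.376 CPM in gonad-derived FGOs and 0.211 CPM in iPSC-derived FGOs. It fell by 4.60 on the log2 scale in the iPSC culture and by 3.76 in the gonad culture, and in both the FGOs lay below all GROs. The 95% counting interval of the Haghl level was 0.147 to 0.293 CPM in iPSC-derived FGOs and 0.287 to 0.483 CPM in gonad-derived FGOs. Haghl was at 0.316 CPM in in vivo FGOs without oocytes 5, 7, 19 and 22. Its log2 ratios to in vivo FGOs in the order iPSC, gonad and 6 dpp were then -0.20, 0.10 and 0.38. The gonad-derived and 6 dpp follicle-derived levels thus no longer stood below in vivo FGOs. Ifi47, an interferon-induced GTPase, was at 16.5 CPM in in vivo GROs, 13.0 CPM in gonad-derived GROs and 11.8 CPM in iPSC-derived GROs, and at 0.766 CPM in in vivo FGOs, 0.126 CPM in 6 dpp follicle-derived FGOs, 0.123 CPM in gonad-derived FGOs and 0.0963 CPM in iPSC-derived FGOs, with falls of -4.37 and -4.44. Ifi47 was at 0.158 CPM in in vivo FGOs without oocytes 5, 7, 19 and 22. Its log2 ratios to in vivo FGOs in the order iPSC, gonad and 6 dpp were then -0.14, -0.08 and -0.07. The cultured levels of Ifi47 were thus close to those of the other in vivo FGOs. Sohlh1 fell by 4.22 in the iPSC culture and by 2.91 in the gonad culture, to 0.493 and 0.443 CPM. Nmrk1, a nicotinamide riboside kinase that feeds NAD synthesis, fell by 3.82 and 3.69, to 0.295 and 0.542 CPM.

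The 6 members with the largest share of reads in in vivo GROs, a share not corrected for transcript length, also fell at least 2-fold in both cultures. Zfp707, a zinc finger protein, was at 238 CPM in in vivo GROs, 193 CPM in gonad-derived GROs and 175 CPM in iPSC-derived GROs, and at 47.2 CPM in in vivo FGOs, 24.8 CPM in 6 dpp follicle-derived FGOs, 23.5 CPM in gonad-derived FGOs and 16.1 CPM in iPSC-derived FGOs. Snai1, a zinc finger repressor known for its part in epithelial to mesenchymal transition, was at 221 CPM in in vivo GROs, 195 CPM in gonad-derived GROs and 243 CPM in iPSC-derived GROs, and at 49.3 CPM in in vivo FGOs, 40.5 CPM in 6 dpp follicle-derived FGOs, 43.2 CPM in gonad-derived FGOs and 43.4 CPM in iPSC-derived FGOs. Id3, which keeps basic helix-loop-helix factors from binding DNA, was at 209 CPM in in vivo GROs, 177 CPM in gonad-derived GROs and 192 CPM in iPSC-derived GROs, and at 35.1 CPM in in vivo FGOs, 35.8 CPM in 6 dpp follicle-derived FGOs, 24.2 CPM in gonad-derived FGOs and 20.6 CPM in iPSC-derived FGOs. Cultured FGO levels of these 3 were close to or below those of all in vivo FGOs, but without in vivo FGOs 5, 7, 19 and 22 all but the iPSC-derived level of Zfp707 stood above in vivo FGOs. Id3 was then at 15.0 CPM, Snai1 at 27.4 CPM and Zfp707 at 18.4 CPM in vivo. The log2 ratios in the order iPSC, gonad and 6 dpp were then 0.44, 0.67 and 1.23 for Id3, 0.65, 0.65 and 0.55 for Snai1 and -0.18, 0.35 and 0.43 for Zfp707.

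Uqcrc1, a core subunit of respiratory complex III, was at 189.9 CPM in in vivo GROs, 166 CPM in gonad-derived GROs and 179.6 CPM in iPSC-derived GROs, and at 33.5 CPM in in vivo FGOs, 47.5 CPM in 6 dpp follicle-derived FGOs, 34.0 CPM in gonad-derived FGOs and 26.0 CPM in iPSC-derived FGOs. Without in vivo FGOs 5, 7, 19 and 22 Uqcrc1 was at 21.2 CPM in vivo and its 6 dpp log2 ratio was 1.14, past the 2-fold limit. Coro1c, an actin-binding coronin, fell by 2.78 in the iPSC and 1.81 in the gonad culture on the log2 scale, to 19.9 and 33.7 CPM. Dr1, which represses transcription by binding the TATA-binding protein, fell by 2.28 and 2.48, to 20.4 and 16.9 CPM. Of these 6 members, Coro1c alone did not pass the 4-fold limit in the gonad culture, and it did without gonad-derived FGO 2 (-2.07).

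The levels in cultured FGOs were set beside both in vivo stages. In all 3 cultured FGO groups nearly all members stood at least 2-fold below in vivo GROs: 205 in iPSC-derived FGOs (21.9% of all genes), 206 in gonad-derived FGOs (17.4%) and 210 in 6 dpp follicle-derived FGOs (18.0%). The median log2 ratio to in vivo GROs was -2.97, -2.77 and -2.71. The falls were complete for 203, 200 and 206 members, and 191, 185 and 192 of these kept that class when read by the median oocyte.

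Against in vivo FGOs the picture depended on 4 oocytes. With all 20 in vivo FGOs, iPSC-derived FGOs were at least 2-fold lower for 69 members (8.81% of all genes) and at least 2-fold higher for 10 (2.24%). Gonad-derived FGOs were lower for 35 (2.66%) and higher for 13 (1.03%), and 6 dpp follicle-derived FGOs were lower for 33 (2.07%) and higher for 7 (0.588%). Median log2 ratios were -0.54, -0.30 and -0.30. Without in vivo FGOs 5, 7, 19 and 22 the medians were -0.01, 0.26 and 0.22, so the direction turned in the gonad and 6 dpp groups. In that setting iPSC-derived FGOs were lower for 17 members (6.34% of all genes) and higher for 20 (3.50%), gonad-derived FGOs lower for 5 (1.36%) and higher for 31 (2.28%), and 6 dpp follicle-derived FGOs lower for 4 (1.13%) and higher for 23 (1.11%). Complete falls then numbered 193, 182 and 190, and the share of all genes in that class was not counted in this setting. The rule asked for a low in vivo FGO level, so that levels above it are partly fixed by the choice. No member had every oocyte of a cultured FGO group below every in vivo FGO, against 2.72% of all genes for iPSC-derived, 0.215% for gonad-derived and 0.339% for 6 dpp follicle-derived FGOs.

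Among the members lowest against in vivo FGOs, Piwil2 had log2 ratios of -3.12 in iPSC-derived, -1.94 in gonad-derived and -2.53 in 6 dpp follicle-derived FGOs. Syncrip, an RNA-binding protein of the hnRNP family, was at 6.23 CPM in in vivo FGOs, 1.76 CPM in 6 dpp follicle-derived FGOs, 1.58 CPM in gonad-derived FGOs and 0.584 CPM in iPSC-derived FGOs. Jade3, a subunit of the HBO1 histone acetyltransferase complex, was at 6.48 CPM in in vivo FGOs, 2.48 CPM in 6 dpp follicle-derived FGOs, 1.59 CPM in gonad-derived FGOs and 0.650 CPM in iPSC-derived FGOs. The oocytes of each cultured group overlapped the in vivo FGOs for all of these. Without in vivo FGOs 5, 7, 19 and 22 the ratios in the order iPSC, gonad and 6 dpp were -2.43, -1.25 and -1.84 for Piwil2, -1.95, -1.01 and -0.89 for Syncrip and -1.86, -0.997 and -0.48 for Jade3, so Syncrip was no longer 2-fold lower in the 6 dpp group, nor Jade3 in the gonad and 6 dpp groups.

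With all 24 in vivo GROs, failed falls were few and only partly shared. In iPSC-derived FGOs the failed members were Krt79, Pax6, Mapkapk2, Cbr3, Tlnrd1, Agrn, Nxnl2 and Gas2l1. In gonad-derived FGOs they were Trim29, Krt79, Pax6, Tlnrd1, Cldn6, Ndufa4l2 and Gas2l1, and in 6 dpp follicle-derived FGOs Htr5b, Tmc3 and Cldn6. Partial falls were found for Insm1 and Cox4i2 in iPSC-derived FGOs, for Fermt3, Septin9, Htr5b, Mapkapk2, Tmc3 and Nfasc in gonad-derived FGOs, and for Trim29, Krt79, Grhl3 and Pax6 in 6 dpp follicle-derived FGOs. Of all 8849 genes, 1938, 1538 and 1590 were outside the failed class in the iPSC, gonad and 6 dpp groups. The complete class held 1935, 1531 and 1586, so partial falls were rare over all genes. The rule asked for a low in vivo FGO level, so that partial falls among members are partly fixed by the choice. Single oocytes carried some of the members' calls. The partial fall of Trim29 in the 6 dpp group ended without its oocyte 11. That of Septin9 became complete without gonad-derived FGO 1. It became failed without in vivo GRO 3 (log2 ratio to in vivo GROs -1.03, or 1.34 without it). Leaving out certain other gonad-derived FGOs, such as FGO 2 (-0.99), also made it failed. The failed fall of Krt79 in gonad-derived FGOs became partial without gonad-derived FGO 17 (log2 ratio to in vivo GROs -0.67, or -1.05 without it). The calls of Cox4i2 (iPSC), Mapkapk2 and Tmc3 (gonad) and Htr5b and Grhl3 (6 dpp) lay close enough to a limit that leaving out one or another single oocyte changed them. Without in vivo GROs 17 to 24 failed falls numbered 12, 12 and 7, and the share of all genes in that class was not counted in this setting. Read by the median oocyte, 7 of 8, 6 of 7 and 3 of 3 failed members kept that class. The 6 include Trim29, whose median oocyte held no reads of it in any group. Its class by the median was thus fixed in advance and says nothing about its fall.

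Mapkapk2, a kinase activated by p38 in stress signalling, was at 9.92 CPM in in vivo GROs, 12.8 CPM in gonad-derived GROs and 15.3 CPM in iPSC-derived GROs, and at 1.46 CPM in in vivo FGOs, 1.35 CPM in 6 dpp follicle-derived FGOs, 3.73 CPM in gonad-derived FGOs and 12.8 CPM in iPSC-derived FGOs. Over oocytes it ran from 6.50 to 20.9 CPM with a median of 12.4 CPM in iPSC-derived FGOs, from 0.298 to 18.6 CPM with a median of 0.961 CPM in gonad-derived FGOs, from 0.134 to 3.85 CPM with a median of 1.24 CPM in 6 dpp follicle-derived FGOs and from 0.397 to 3.52 CPM with a median of 1.16 CPM in in vivo FGOs. The 95% counting interval was 12.3 to 13.4 CPM in iPSC-derived and 3.44 to 4.04 CPM in gonad-derived FGOs. All 24 iPSC-derived FGOs lay above every in vivo FGO, though the rule had asked for low in vivo FGO levels. This held for 1 of the 213 members, a smaller share than the 1.36% of all genes. In the gonad-derived group 5 of 24 oocytes lay above the midpoint between the in vivo GRO and FGO levels and the others lay with the in vivo FGOs.

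Cbr3, a carbonyl reductase, was at 6.86 CPM in in vivo GROs, 7.44 CPM in gonad-derived GROs and 13.7 CPM in iPSC-derived GROs, and at 1.18 CPM in in vivo FGOs, 1.71 CPM in 6 dpp follicle-derived FGOs, 1.92 CPM in gonad-derived FGOs and 7.44 CPM in iPSC-derived FGOs. Its iPSC-derived FGOs ran from 2.17 to 17.2 CPM with a median of 7.33 CPM, against from 0.354 to 6.42 CPM with a median of 1.27 CPM in gonad-derived FGOs, and 23 of 24 lay above the midpoint against 5 of 24. Agrn, the proteoglycan agrin of basement membranes and the neuromuscular synapse, was at 3.32 CPM in iPSC-derived FGOs against 0.696 CPM in gonad-derived, 0.446 CPM in 6 dpp follicle-derived and 0.883 CPM in in vivo FGOs. Mapkapk2, Cbr3 and Agrn thus kept a level in iPSC-derived FGOs and were at 2 CPM or less in 6 dpp follicle-derived FGOs.

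Pax6 was at 1.20 CPM in in vivo FGOs, 4.09 CPM in 6 dpp follicle-derived FGOs, 6.63 CPM in gonad-derived FGOs and 9.94 CPM in iPSC-derived FGOs. Its oocytes ran from 0.959 to 29.2 CPM with a median of 9.95 CPM in iPSC-derived, from 0.701 to 21.7 CPM with a median of 3.73 CPM in gonad-derived, from 1.22 to 7.72 CPM with a median of 3.98 CPM in 6 dpp follicle-derived and from 0.271 to 3.02 CPM with a median of 1.23 CPM in in vivo FGOs. From its higher GRO level Pax6 fell by 1.20 on the log2 scale in the iPSC culture and by 1.10 in the gonad culture, so it counts as failed for the level it reached while falling at least 2-fold inside each culture, though in the gonad culture this ended without gonad-derived GRO 13 (-0.94). Krt79 behaved likewise, with falls of -3.07 and -1.86 inside the cultures that ended at 34.2 CPM in iPSC-derived and 17.6 CPM in gonad-derived FGOs. Krt79 ran from 4.08 to 96.6 CPM with a median of 18.2 CPM over iPSC-derived FGOs and from 0 to 6.60 CPM with a median of 0.791 CPM over in vivo FGOs.

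Tlnrd1, a talin rod domain protein that bundles actin, was at 3.11 CPM in iPSC-derived and 2.59 CPM in gonad-derived FGOs against 5.39 CPM in in vivo GROs. Gas2l1, which links actin to microtubules, was at 2.83 and 3.10 CPM against 5.41 CPM. Nxnl2, a nucleoredoxin-like protein, was at 4.31 CPM in iPSC-derived FGOs against 7.87 CPM in in vivo GROs. All 3 started near the lower limit of the rule in in vivo GROs.

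In 6 dpp follicle-derived FGOs, Htr5b stood at 23.9 CPM, with oocytes from 7.10 to 40.9 CPM with a median of 22.9 CPM, against from 1.22 to 21.3 CPM with a median of 5.72 CPM in in vivo FGOs and from 0.270 to 12.6 CPM with a median of 2.88 CPM in iPSC-derived FGOs. So for Htr5b the iPSC-derived oocytes were low at both stages, while the 6 dpp follicle-derived FGOs stayed within 2-fold of in vivo GROs. Tmc3, a transmembrane channel-like protein, was at 1.24 CPM in in vivo FGOs, 5.37 CPM in 6 dpp follicle-derived FGOs, 3.95 CPM in gonad-derived FGOs and 2.64 CPM in iPSC-derived FGOs. Cldn6, a claudin of tight junctions, was at 0.704 CPM in in vivo FGOs, 4.25 CPM in 6 dpp follicle-derived FGOs, 3.07 CPM in gonad-derived FGOs and 1.59 CPM in iPSC-derived FGOs, with 95% counting intervals of 3.94 to 4.59 CPM in the 6 dpp group and 0.574 to 0.854 CPM in vivo.

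**Figure D3:**
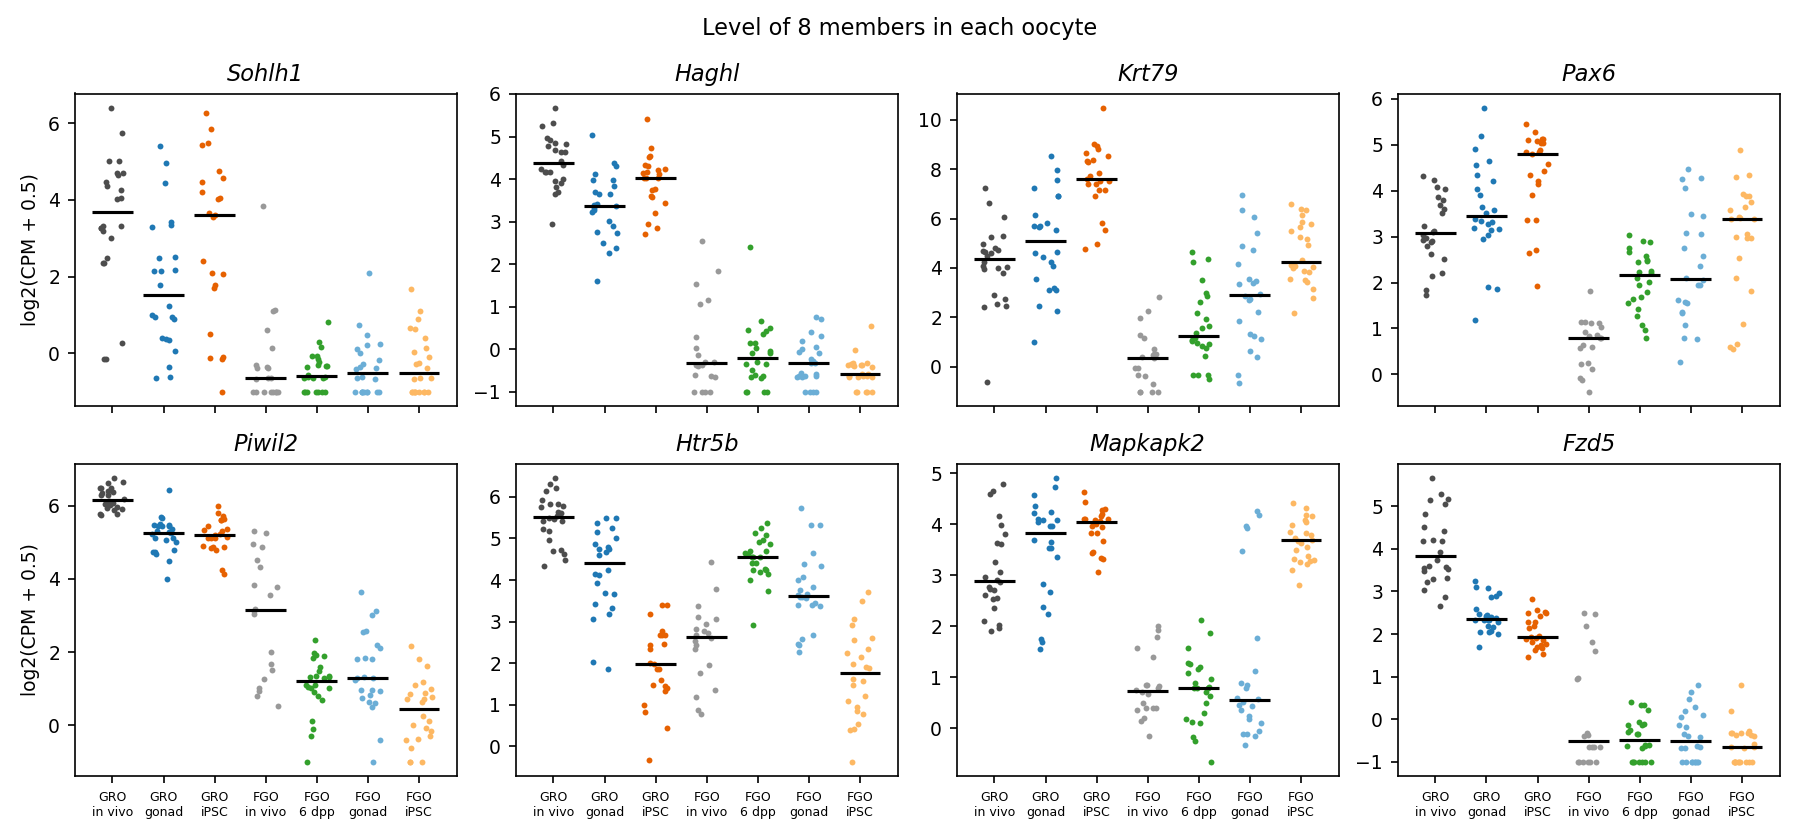
Each point is 1 oocyte, the vertical axis is log2(CPM + 0.5), bars mark group medians, and each panel is 1 of 8 members. Sohlh1, Haghl and Fzd5 are low in all FGO groups. Krt79 keeps a level in gonad-derived and iPSC-derived FGOs, and Pax6 in these and in 6 dpp follicle-derived FGOs. Htr5b keeps a level in 6 dpp follicle-derived FGOs, and Mapkapk2 in every iPSC-derived FGO.

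The promoters of Haghl, a deep fall in both cultures, and of Krt79, Pax6 and Mapkapk2, whose falls failed in iPSC-derived FGOs, are shown so that their sequences can be set beside these levels. Each is the RefSeq sequence of build GRCm38.p6 from 250 bases before to 50 bases after the gene's start, with capitals at any match to CANNTG (an E-box, the core bound by basic helix-loop-helix factors), CCAAT (the CCAAT box), TATAAA (the TATA box), TGACGTCA (the cAMP response element), or the homeodomain cores TAATTA and, with a different last base, TAATTG, on either strand.
Haghl, chr17:25785537-25785836, minus strand: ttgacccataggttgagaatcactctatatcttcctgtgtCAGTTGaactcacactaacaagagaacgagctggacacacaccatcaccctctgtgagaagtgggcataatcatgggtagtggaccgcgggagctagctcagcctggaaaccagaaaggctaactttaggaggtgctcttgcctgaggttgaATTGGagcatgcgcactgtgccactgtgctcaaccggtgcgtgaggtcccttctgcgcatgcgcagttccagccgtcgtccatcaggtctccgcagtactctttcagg
Krt79, chr15:101940275-101940574, minus strand: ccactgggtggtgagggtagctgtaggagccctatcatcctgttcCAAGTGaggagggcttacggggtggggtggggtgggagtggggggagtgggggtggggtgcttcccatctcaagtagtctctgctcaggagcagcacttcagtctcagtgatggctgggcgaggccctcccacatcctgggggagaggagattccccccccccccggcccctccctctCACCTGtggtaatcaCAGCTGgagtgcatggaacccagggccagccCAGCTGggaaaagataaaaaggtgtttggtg
Pax6, chr2:105668646-105668945, plus strand: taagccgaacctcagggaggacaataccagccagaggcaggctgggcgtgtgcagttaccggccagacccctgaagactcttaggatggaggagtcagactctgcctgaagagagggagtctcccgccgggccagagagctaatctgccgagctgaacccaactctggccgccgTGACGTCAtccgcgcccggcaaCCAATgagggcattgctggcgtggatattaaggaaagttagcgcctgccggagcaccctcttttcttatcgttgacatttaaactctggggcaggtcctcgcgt
Mapkapk2, chr1:131097794-131098093, minus strand: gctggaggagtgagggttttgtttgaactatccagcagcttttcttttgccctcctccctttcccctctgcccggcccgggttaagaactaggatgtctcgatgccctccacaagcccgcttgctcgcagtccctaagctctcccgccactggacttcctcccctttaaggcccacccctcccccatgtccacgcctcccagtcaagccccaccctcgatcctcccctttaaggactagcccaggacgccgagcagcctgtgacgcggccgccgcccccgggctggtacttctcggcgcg

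Haghl holds 1 CANNTG and 1 CCAAT match, Krt79 4 CANNTG matches, Pax6 1 TGACGTCA and 1 CCAAT match, and Mapkapk2 none of the 6 motifs. A promoter was found for 173 of the 213 members and 7166 of the 8849 genes. CANNTG was in 61.8% of members' promoters, 63.8% of those of all genes at 5 CPM and 72.2% of all 27025 promoters of the table. CCAAT was in 38.2%, 39.8% and 37.9%, TATAAA in 6.36%, 6.59% and 14.2%, and TGACGTCA in 2.89%, 3.31% and 1.88%. TAATTA was in 2.31%, 2.65% and 5.31%, and TAATTG in 2.89%, 5.09% and 8.15%. Median GC content was 62.0% for members and 60.7% for all genes at 5 CPM, and the median ratio of observed to expected CpG was 0.765 and 0.781 (0.389 over all promoters). CANNTG reads the same on both strands, and a match is a description of letters. Members had a median exonic length of 3371 bases against 2962 bases. They lie on all autosomes and the X, with 25 on chromosome 2, 23 on chromosome 11 and 8 on the X, and made up 4.71% of the genes at 5 CPM on chromosome 19 and 0.474% of those on chromosome 6.

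Comparisons between cultured groups, added after the data had been seen, use no library of the rule. In GROs the iPSC-derived level was at least 2-fold lower than the gonad-derived for 5 members (1.33% of all genes) and higher for 7 (0.712%), with a median log2 ratio of 0.07. The lower ones were Htr5b, Fermt3, Grhl3, Septin9 and Nes, and the higher ones Mpdu1, Gipc1, Sohlh1, Eif5a2, Agrn, Pvr and Krt79. The calls of 3 rest on gonad-derived GRO 7: without it Fermt3 turned from -1.62 to 1.10 and Septin9 from -1.21 to 0.63, and Grhl3 went from -1.38 to -0.61. In FGOs the iPSC-derived level was lower than the gonad-derived for 18 members (3.09%) and higher for H2-K1, Mapkapk2, Agrn and Cbr3 (0.938%), with a median of -0.26. Against 6 dpp follicle-derived FGOs it was lower for 18 (3.60%) and higher for 10 (1.66%), with a median of -0.25. Gonad-derived FGOs were lower than 6 dpp follicle-derived FGOs for 0 members (0.170%) and higher for 7 (0.735%), with a median of 0.00. Of these 7, Trim29, Septin9, Fermt3 and Ndufa4l2 rest on gonad-derived FGO 1, without which their ratios went from 1.40 to -0.97, from 1.06 to -0.68, from 2.49 to 0.83 and from 1.41 to 0.87, and Mapkapk2 went from 1.19 to 0.91 without gonad-derived FGO 18. Without 6 dpp follicle-derived FGO 11 the ratios rose instead, to 3.89 for Trim29, 2.17 for Septin9 and 2.29 for Ndufa4l2. The lower calls in iPSC-derived FGOs likewise ended for Septin9 against the gonad group without gonad-derived FGO 1, and against the 6 dpp group for Trim29 without its oocyte 11 and for Zfp871 without its oocyte 12, and calls close to the limit ended without other oocytes, among them H2-K1, at 1.07 or 0.81 without iPSC-derived FGO 13. H2-K1, a classical class I histocompatibility gene, was at 39.2 CPM in iPSC-derived and 18.5 CPM in gonad-derived FGOs.

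The members were also counted oocyte by oocyte. A member was counted below its midpoint where its level was under the geometric mean of the pooled in vivo GRO and FGO levels, the values that chose the members, so the extreme places of the in vivo groups are fixed by the rule. In vivo GROs had 8 to 38 of the 213 members below the midpoint (median 22.5), iPSC-derived GROs 34 to 100 (median 63) and gonad-derived GROs 29 to 151 (median 67.5). The cultured GROs thus overlapped the upper end of in vivo GROs, and gonad-derived GRO 23, with 151, had the highest count of any GRO. FGOs had 194 to 207 (median 202) in the iPSC group, 190 to 211 (median 203) in the gonad group and 175 to 211 (median 206) in the 6 dpp group. In vivo FGOs had a median of 213, but oocytes 7, 19, 5 and 22 had 70, 151, 157 and 165. In vivo FGO 19 also had the highest granulosa marker sum of its group, 615.6 CPM against a median of 358.9 CPM. In vivo FGO 16, at 589.8 CPM, had 198 members below the midpoint. The lowest 6 dpp follicle-derived FGO, oocyte 12 with 175, is the one with the highest theca and stroma and granulosa marker levels (829.8 and 1851 CPM), and the part of these cells in its count was not tested.

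**Figure D4:**
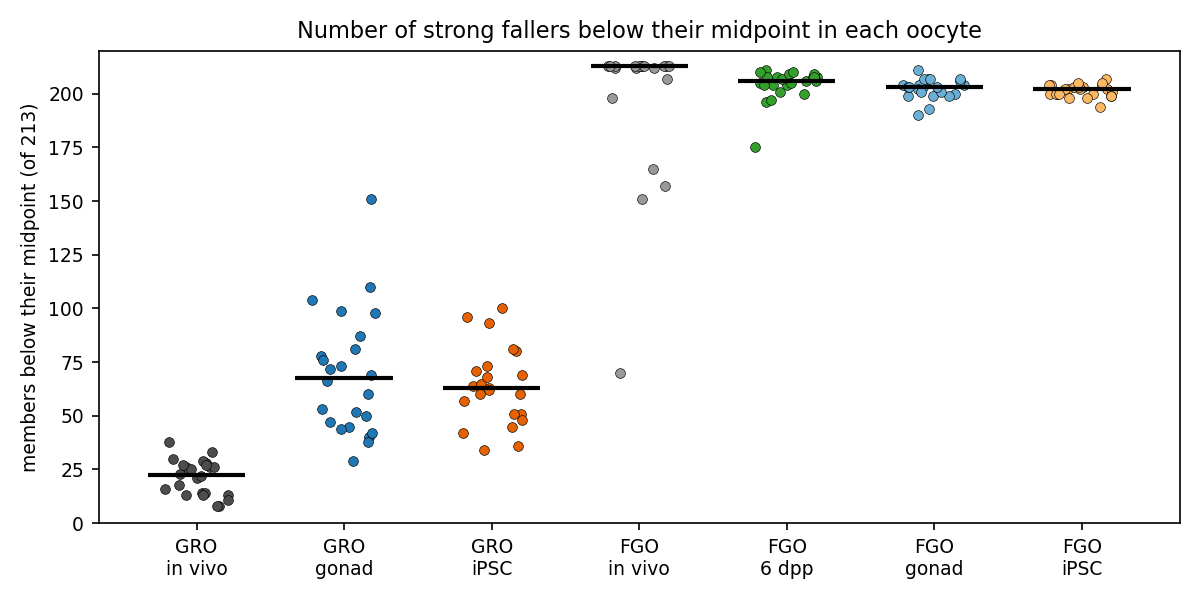
Each point is 1 oocyte and the vertical axis is the number of the 213 members below their midpoint. Bars mark medians. GRO groups lie at 8 to 151 and cultured FGO groups at 175 to 211, and 4 in vivo FGOs lie at 70 to 165.

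The summed level of the members, highest in in vivo GROs by the choice of members, was compared next. Its median over oocytes was 5963 CPM in in vivo GROs, 4452 CPM in iPSC-derived and 4091 CPM in gonad-derived GROs. In FGOs it was 698 CPM in vivo (424 to 3687 CPM), 973.1 CPM in the 6 dpp group (733 to 1687 CPM), 876.8 CPM in the gonad group (706 to 1732 CPM) and 831 CPM in the iPSC group (729 to 1215 CPM). The 3 cultured FGO groups overlapped each other over most of their ranges.

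A small set of members was carried by single oocytes. For 8 members more than 50% of the summed in vivo GRO level came from in vivo GRO 3, against 0.158% of all genes with such a share, and the next member, Krt79, had 22.5%. They were Trim29 (98.1%), Fermt3 (97.2%), Lyzl4 (94.7%), Septin9 (86.0%), Acp4 (83.4%), Ccdc17 (77.5%), Ndufa4l2 (74.9%) and Grhl3 (52.4%). Trim29, a tripartite motif protein of stratified epithelia, was at 377 CPM in in vivo GRO 3, 253 CPM in gonad-derived GRO 7, 224 CPM in gonad-derived FGO 1, 98.2 CPM in iPSC-derived GRO 8 and 80.5 CPM in 6 dpp follicle-derived FGO 11, and its median was 0 in every group. Without in vivo GRO 3 the pooled in vivo GRO level was 0.329 CPM for Trim29, 0.639 CPM for Fermt3, 2.84 CPM for Acp4, 3.37 CPM for Grhl3 and 5.78 CPM for Ndufa4l2.

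At least 2 of the 8 were at 20 CPM or more in 8 oocytes: in vivo GRO 3, gonad-derived GROs 6 and 7, iPSC-derived GROs 8 and 11, gonad-derived FGOs 1 and 3 and 6 dpp follicle-derived FGO 11. Their libraries held 6.05 M to 7.87 M reads, and no in vivo or iPSC-derived FGO was among them. The failed fall of Trim29 in gonad-derived FGOs rests on these oocytes: its ratio inside the gonad culture was -0.00, or -2.37 without gonad-derived FGO 1 and 2.05 without gonad-derived GRO 7. Without in vivo GRO 3 the rule chose 204 genes, 200 of them members, and all 8 of these were among the 13 members lost. Leaving the 8 out, the 205 other members gave 52 and 67 early falls in iPSC-derived and gonad-derived GROs, 195, 196 and 200 complete falls in iPSC-derived, gonad-derived and 6 dpp follicle-derived FGOs, and 8, 5 and 3 failed ones.

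**Figure D5:**
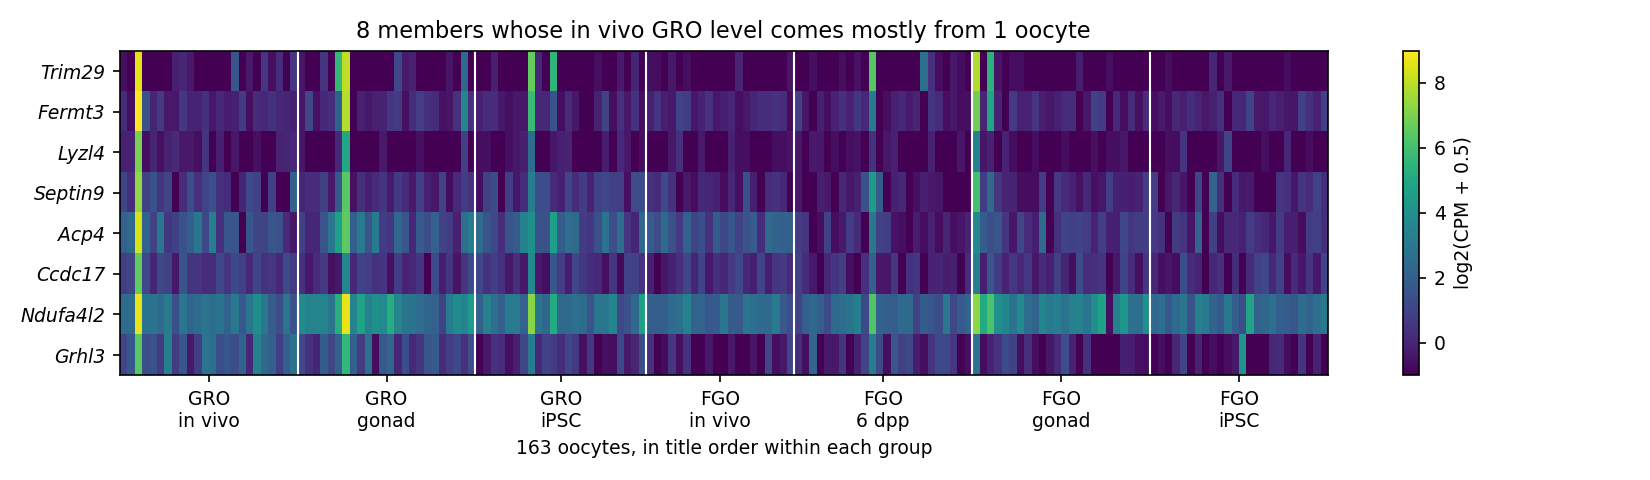
Rows are the 8 members carried by in vivo GRO 3, columns the 163 oocytes in label order within each group, and colour is log2(CPM + 0.5). The rows are dark in most oocytes and bright together in a few columns of the GRO, gonad-derived FGO and 6 dpp follicle-derived FGO groups.

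By role, 65 members belonged to at least 1 of 34 gene lists and 148 to none. The lists were drawn up by symbol and are not complete, so each count is of a list's genes and not of every member with that role. For comparison, 2.50% of all genes at 5 CPM were members, and 58.7% and 46.9% of all members fell 4-fold in the iPSC and gonad cultures. A count of a few members of a list is a description only. The zinc finger and Kruppel-like list held 15 members among its 291 genes at 5 CPM (5.15%), of which 9 fell at least 4-fold in each culture, and it lacks other zinc finger factors among the members, such as Snai1, Ovol1, Yy1, Sp4, Zfx and Insm1. The 15 include Zfp668, with falls of -3.36 and -2.77 on the log2 scale in the iPSC and gonad cultures, and Zfp395, with -3.54 and -3.28. Zfp217, at 90.0 CPM in in vivo GROs, had -0.47 and -0.72 after standing at 35.4 and 39.7 CPM in the iPSC-derived and gonad-derived GROs. Zfp36l2, in this list by its name, which binds AU-rich elements and promotes mRNA decay, had -0.80 and -0.64.

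In the list of homeobox, forkhead, Sox, GATA and T-box factors 4 of 34 genes at 5 CPM (11.8%) were members (Pax6, Sox12, Gsc and Foxc1), of which Gsc, goosecoid, alone fell 4-fold, in the gonad culture (-2.25). Its ratio in the iPSC culture was -1.97, just short of the limit, and it passed without iPSC-derived FGO 13 (-2.04) or 18 (-2.03). The homeobox members Tgif1 and Onecut3 are outside the list, with -2.70 and -3.19 for Tgif1 and -1.64 and -1.18 for Onecut3. The list of basic helix-loop-helix and leucine zipper factors held 2 members of 39 (5.13%), Id3 and Tcf24, with falls of -3.19 and -2.84 for Id3 and -2.23 and -1.95 for Tcf24, but neither Sohlh1 nor Xbp1, which belong to these families. The list of transcription factors of early oocyte growth held 1 of 14 (7.14%), Sohlh1. Its median in vivo log2 ratio over all 14 was -0.64, against -0.16 over all genes.

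Among signalling genes, the kinase and phosphatase list held 4 members of 181, or 2.21% (Mapkapk2, Dusp2, Ppp2cb and Dusp5), 3 of them falling 4-fold in each culture. It lacks others, such as the kinases Tyro3, Ripk4 and Ulk3 and the phosphatase Ppm1f, whose log2 ratios were -3.30 and -2.88, -3.37 and -2.51, -2.68 and -2.15, and -2.88 and -2.06 in the iPSC and gonad cultures. Dusp2 and Dusp5, phosphatases that turn off MAP kinases, fell by 2.79 and 3.19 on the log2 scale in the iPSC culture and by 2.54 and 2.67 in the gonad culture. The list of cytokines and growth factors held 2 of 64 (3.12%), Pdgfa, a platelet-derived growth factor, with -1.77 and -2.20, and Wnt9a, with -3.26 and -2.57. The G protein-coupled receptor list held 2 of 43 (4.65%), Fzd5 and Htr5b. Nrarp, an inhibitor of Notch signalling, was the Notch list's 1 member of 11 (9.09%), with -1.82 and -1.41.

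The chromatin list held 4 members of 110, or 3.64% (Hdac11, Kmt5c, Smarcd1 and Ehmt2), of which 2 fell 4-fold in the iPSC culture and 1 in the gonad culture. Hdac11, a histone deacetylase, fell by 3.83 and 2.56, and Ehmt2, the H3K9 methyltransferase G9a, had -2.94 and -1.90 on the log2 scale. The ubiquitin list held 8 of 247 (3.24%, near the share over all genes), with 5 and 3 4-fold falls among them, and Usp35, a deubiquitinase, had the values -3.68 and -2.66. The immune list held 5 of 65 (7.69%), of which 2 fell 4-fold in each culture. The cell cycle list held 2 of 33 (6.06%), E2f7, a repressor of the E2F family, with -3.41 and -2.05, and Cdkn2b, an inhibitor of cyclin D kinases, with -1.79 and -2.40.

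None of the 118 genes of the ribosomal protein list at 5 CPM or more in in vivo GROs was a member, where 2.50% of all genes passed the limits. Other lists also held no member. They were motor, tubulin and cilium genes (120 at 5 CPM), neuronal and synaptic genes (39), Polycomb genes (22) and glycolysis and sugar enzymes (22). Meiotic prophase genes (20), retinoid and thyroid receptors and enzymes (7) and the Hedgehog pathway (3) held none either.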

How the data were processed

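The authors sequenced single oocytes by Smart-seq2, aligned the reads to GRCm38 (mm10) with STAR and deposited raw counts of uniquely mapped exonic reads per gene. Counting used 1 transcript per gene, and use of strand was not stated, so reads of Alkbh3os1 and its antisense partner cannot be told apart. Reads shared with near-identical copies are lost by unique mapping, which can lower genes such as H2-K1. Of 21950 genes, 21907 matched a symbol in RefSeq (GRCm38.p6).

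From the deposited counts, CPM was computed per group (summed counts per 1000000 reads, with exact Poisson 95% intervals) and per oocyte. Ratios are log2 of CPM plus 0.5. The authors selected oocytes by size for their own models; all libraries in the table were used here. No test was run because the labels name no animal or culture, so each group is 1 sample. Python 3.11.15, numpy 2.4.6, pandas 2.3.3 and scipy 1.17.1 were used, and R 4.3.3 with edgeR 4.0.16 and DESeq2 1.42.0 for scaling factors alone. The scripts were tested on simulated data. In all, 14 settings besides leaving out single oocytes were compared.

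The members and gene lists were chosen with earlier results of these data known. Members were named by extremes: the lowest in vivo ratios, the largest read shares, the lowest and highest against in vivo oocytes, failed falls, the largest and smallest falls in culture, the genes at each limit, and members of the lists. Further genes named as the content of a small count or as missing from a list were chosen after their values were seen.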

Additional observations from a re-analysis of the deposited data

How the results depend on the processing

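Medians of all genes moved by less than 0.1 (log2) under TMM and median-of-ratios scaling, which chose 192 and 185 genes, all members. In what follows, counts in threes are in the order iPSC-derived, gonad-derived, 6 dpp follicle-derived FGOs, and pairs in the order iPSC, gonad. With a pseudocount of 0.1 CPM, partial falls numbered 6, 13 and 8. With 2 CPM, 83 members were chosen, and among the 213 the early falls in gonad-derived GROs numbered 40, partial falls 1, 2 and 2, failed falls 11 in gonad-derived and 6 in 6 dpp FGOs, and 4-fold falls 72 and 43. With the median over oocytes in place of the pooled level, 339 genes were chosen, early falls numbered 35 and 38, partial falls 7, 14 and 11 and failed falls 14, 12 and 9, and Fermt3 turned from a fall to a log2 ratio of 0.0094 in the iPSC culture. Without in vivo FGOs 5, 7, 19 and 22, 446 genes were chosen and partial falls numbered 12, 24 and 20. Among members at 10 CPM or more, failed falls numbered 1, 3 and 1 and partial falls 2 in gonad-derived and 2 in 6 dpp FGOs. With a ratio limit of -3, early falls numbered 11 and 11, complete falls 22, 20 and 20, partial falls 0 in iPSC-derived and 1 in gonad-derived FGOs, failed falls 1, 2 and 0, and 4-fold falls 19 and 16. With 1.5-fold limits, early falls numbered 123 and 136, partial falls 19, 30 and 16 and failed falls 4, 3 and 1. With 3-fold limits, early falls numbered 16 and 11, partial falls 0, 1 and 2 and failed falls 21, 22 and 11. Without the 8 members carried by 1 oocyte, an alternative chosen after seeing the data, partial falls in 6 dpp FGOs numbered 2. Without in vivo GROs 17 to 24, also chosen after seeing the data, 162 genes were chosen, 143 of them members, early falls numbered 36 and 33, partial falls 1 in iPSC-derived FGOs, and failed falls 12 in gonad-derived and 7 in 6 dpp FGOs. Beyond changes that the stricter or looser limit itself makes, the cause was not tested.

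Leaving out 1 oocyte at a time, early falls ranged from 52 to 63 (iPSC) and from 64 to 78 (gonad), 4-fold falls from 123 to 128 and from 97 to 105, complete falls from 197 to 204, 196 to 201 and 201 to 208, partial falls from 1 to 3, 4 to 10 and 2 to 8, and failed falls from 8 to 14, 6 to 12 and 2 to 9. Failed falls were most numerous without in vivo GRO 3. The number of members ranged from 201 to 275, the highest without in vivo FGO 7. No paired analysis was possible because oocyte numbers in the labels mark no shared animal, culture or day and each group is 1 sample. Groups of 145 M to 166 M reads (M, 1000000) leave counting error small, and the spread between animals or cultures is unknown.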
